A study of Mus musculus with 28 samples.

Results

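The Period and cryptochrome repressors of the circadian clock were measured here as the RNA of 6 genes, Per1, Per2, Per3, Cry1, Cry2 and Ciart. They were taken by gene name and are 6 of the 45513 gene rows of the count table. All 6 had enough counts to enter the tests, which covered 24273 genes. RNA was sequenced from the ventricular myocardium of 28 male adult C57BL/6 mice, 1 library per mouse. Every mouse was fed a diet with 1% hydroxyproline, a precursor of oxalate, and 0.5% calcium. At 6 weeks of age the mice had either a 5/6 nephrectomy, done in stages and removing most kidney tissue to induce chronic kidney disease (CKD), or a sham operation. On day 7 they were gavaged once with either Oxalobacter formigenes (Oxf), a gut bacterium that degrades oxalate, or 200 µl of its culture medium (vehicle). The groups are sham-vehicle (10 mice, numbers 901 to 910), CKD-vehicle (6 mice, 913 to 920), sham-Oxf (5 mice, 921 to 929) and CKD-Oxf (7 mice, 931 to 940). The design names 4 groups of 10 mice, and the other mice were not analysed here. The numbers of the groups do not interleave, so between groups mouse number and treatment cannot be told apart. The hour at which hearts were collected is not given in the sources used here.

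The mammalian clock is a feedback loop of transcription. The activators BMAL1 (encoded by Arntl) and CLOCK bind E-boxes and switch on the Per and Cry genes, whose proteins form complexes that enter the nucleus and inhibit the activators until they are degraded. CIART, also called CHRONO, is a further repressor of BMAL1-CLOCK. PAR bZIP factors such as DBP and TEF act on D-boxes, found in Per genes among others, and the heart runs this clock in its own cells. Cry1 RNA is known to peak later in the daily cycle than Per RNA in many tissues.

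The windows of 250 bases before the RefSeq transcription start are shown because they hold different clock motifs. Whether these motifs relate to how the members' RNAs moved together was not tested. RefSeq (GRCm38.p6) windows were matched by symbol for 5 of the 6 genes. Per2 is named only. Capitals mark matches, on either strand, to the E-box CACGTG, the E′-box CACGTT, and the D-box TTATGNAA, where N is any base. These motifs do not overlap one another in the windows printed. Each sequence runs 5′ to 3′ on the strand of its gene and ends at the base before the start.
Ciart, chr3:95882229-95882478, minus strand: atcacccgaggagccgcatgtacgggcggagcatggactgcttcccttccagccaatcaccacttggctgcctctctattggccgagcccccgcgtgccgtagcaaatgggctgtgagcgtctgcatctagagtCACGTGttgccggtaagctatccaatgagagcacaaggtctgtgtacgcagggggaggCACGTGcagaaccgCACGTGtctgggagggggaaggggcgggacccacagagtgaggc
Per1, first of 2 windows, chr11:69098699-69098948, plus strand: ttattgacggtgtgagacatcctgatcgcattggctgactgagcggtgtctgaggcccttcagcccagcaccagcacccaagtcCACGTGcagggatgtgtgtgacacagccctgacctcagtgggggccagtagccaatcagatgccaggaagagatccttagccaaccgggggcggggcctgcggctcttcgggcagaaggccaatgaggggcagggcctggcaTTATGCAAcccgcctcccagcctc
Per3, chr4:151044666-151044915, minus strand: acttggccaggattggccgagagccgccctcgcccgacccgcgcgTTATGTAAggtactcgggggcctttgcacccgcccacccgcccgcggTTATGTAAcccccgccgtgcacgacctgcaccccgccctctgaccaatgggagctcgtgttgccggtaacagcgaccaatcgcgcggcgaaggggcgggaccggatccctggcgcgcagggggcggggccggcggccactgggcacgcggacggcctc
Cry1, chr10:85185055-85185304, minus strand: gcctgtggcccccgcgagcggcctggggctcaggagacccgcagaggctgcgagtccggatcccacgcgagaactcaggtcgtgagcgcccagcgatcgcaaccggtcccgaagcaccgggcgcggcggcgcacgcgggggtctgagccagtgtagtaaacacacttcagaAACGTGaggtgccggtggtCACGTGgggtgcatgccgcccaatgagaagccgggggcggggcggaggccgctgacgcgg
Cry2, chr2:92434070-92434319, minus strand: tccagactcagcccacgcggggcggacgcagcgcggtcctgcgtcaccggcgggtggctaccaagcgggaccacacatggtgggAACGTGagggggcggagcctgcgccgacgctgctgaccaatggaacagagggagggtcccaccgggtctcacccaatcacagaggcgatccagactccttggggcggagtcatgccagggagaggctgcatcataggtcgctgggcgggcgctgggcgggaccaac
Ciart has 3 E-boxes, whose first bases lie 116, 58 and 44 bases before the start. The first Per1 window has an E-box 166 bases and a D-box 24 bases before the start, and the second (chr11:69099902-69100151, not shown) has 0 matches to these 3 motifs. The Per3 window has 2 D-boxes, 205 and 158 bases before the start, and no E-box. Cry1 has an E-box 60 bases and an E′-box 79 bases before the start, and Cry2 has an E′-box 166 bases before it. Of 32851 windows of this length in the same table, 6.02% hold an E-box, 3.85% an E′-box and 3.07% a D-box. A match is a description of these letters and not evidence of binding.

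In build GRCm38 the protein-coding genes lie as follows. Per1 (ENSMUSG00000020893) spans chr11:69095217-69109960 on the plus strand, and the others are on the minus strand. Per2 (ENSMUSG00000055866) spans chr1:91415982-91459324, Per3 (ENSMUSG00000028957) chr4:151003652-151044665 and Cry1 (ENSMUSG00000020038) chr10:85131700-85185064. Cry2 (ENSMUSG00000068742) spans chr2:92403646-92434043, and Ciart (ENSMUSG00000038550) chr3:95878503-95882251. The span of Per3 lies within that of Camta1, on the same strand. Cry2 overlaps the noncoding gene D930015M05Rik, and Ciart the antisense gene C920021L13Rik, both on the other strand. Whether counting used the strand is not given in the sources used here, so reads of such pairs may not be separable. C920021L13Rik was listed with 36 to 152 counts per library, and Camta1 with 1323 to 4081. Camta1 and Per3 are on the same strand, so a strand setting would not separate their reads.

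Libraries held 19.8 to 65.38 M counts (M, mega). Sham-Oxf replicate 1 (mouse 921) stood apart, with the lowest depth and 15879 genes with a count, where the remaining 27 libraries had 27128 to 33995. The abundant 7SL RNA, which helps target secreted proteins, made up 1.83% to 20.98% of counts. Its median share was 14.04% in CKD-vehicle and 7.73% in CKD-Oxf, and 10.09% in sham-vehicle and 2.7% in sham-Oxf. Its share was 20.64% in CKD-Oxf replicate 4 (mouse 934). All 7 ventricular cardiomyocyte markers were present, with a summed level of 20300 to 36210 CPM (counts scaled to the usual common library size). TMM factors were not applied to the marker sums of this paragraph, while the CPM of single genes below are after TMM factors. Summed atrial markers ranged from 73.96 to 4227 CPM, fat markers from 0.05051 to 561.1, liver markers from 0.7637 to 79.18 and skeletal muscle markers from 2.351 to 731.5, with no gene of these lists at 0 in every library. The median summed level of liver markers was 1.02 CPM in CKD-vehicle and 4.35 in CKD-Oxf, and 6.90 in sham-vehicle and 11.8 in sham-Oxf. That of fat markers was 10.9 CPM in CKD-vehicle and 38 in CKD-Oxf, and 101.2 in sham-vehicle and 30.5 in sham-Oxf. The part of other cell types in the results was not tested. In bulk tissue, fewer cells of a type and less RNA per cell cannot be told apart.

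Per1 was the most abundant member per length of exon and Cry1 the least. In sham-vehicle hearts Per1 stood at 22.1 ± 10.9 CPM per kilobase of exon (SD, n = 10) and Per2 at 10.0 ± 7.81. Per3 followed at 7.85 ± 4.61, Cry2 at 4.29 ± 0.936, Ciart at 4.17 ± 3.38 and Cry1 at 1.83 ± 0.417, each over the same 10 mice. The SD was a larger part of the mean in the Per genes and Ciart than in the cryptochromes. Per1 was also the highest and Cry1 the lowest of these group means in CKD-vehicle (17.0 ± 10.5 and 2.01 ± 0.615 CPM per kilobase, n = 6), sham-Oxf (38.9 ± 12.2 and 2.30 ± 0.942, n = 5) and CKD-Oxf (30.9 ± 11.9 and 2.55 ± 0.677, n = 7).

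Among the Period genes, whose proteins are the limiting partners of the repressor complex, the order of group means was the same. CKD-vehicle was lowest, followed by sham-vehicle, CKD-Oxf and sham-Oxf. In the values that follow, the level is CPM, and groups over 5 mice are given by lowest, median and highest mouse. Per1 was 37.7, 125 and 243 CPM in sham-vehicle and 35.1, 87.7 and 193 CPM in CKD-vehicle. In CKD-Oxf it was 68.8, 203 and 250.3 CPM, and the sham-Oxf mice 921, 923, 925, 927 and 929 had 109, 224, 209, 273 and 280.4 CPM. The ranges of all 4 groups overlapped, and mouse 921 was the low one of its group.

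Per2, the Period gene most widely used as a clock reporter, varied most within groups. It was 12.5, 41.2 and 162 CPM in sham-vehicle and 6.90, 18.3 and 67.5 CPM in CKD-vehicle. It was 42.7, 105.1 and 142 CPM in CKD-Oxf, and 50.0, 113, 116, 121 and 163 CPM in sham-Oxf mice 921 to 929 in order of number. In CKD-Oxf, 5 of 7 mice lay above every CKD-vehicle mouse. Per3, a paralogue with a lesser part in timekeeping than Per1 and Per2, was 35.5, 57.6 and 162 CPM in sham-vehicle and 16.7, 30.0 and 83.1 CPM in CKD-vehicle. It was 62.6, 139.5 and 183 CPM in CKD-Oxf, where 6 of 7 mice exceeded every CKD-vehicle mouse. The 5 sham-Oxf mice had 75.3, 178, 149, 210.2 and 222 CPM of Per3, and 3 of them exceeded every sham-vehicle mouse.

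The cryptochromes are relatives of photolyases that hold the strongest repressive activity of the complex. Cry2 was 20.0, 25.9 and 35.7 CPM in sham-vehicle and 15.6, 19.9 and 28.8 CPM in CKD-vehicle. It was 32.0, 42.1 and 45.7 CPM in CKD-Oxf, so all 7 of these mice exceeded all 6 CKD-vehicle mice. In sham-Oxf, mouse 921 had 16.7 CPM of Cry2, below every sham-vehicle mouse. The other 4 had 39.9, 40.5, 43.2 and 46.6 CPM, above every sham-vehicle mouse. Cry1 stood at a lower level. It was 4.53, 5.66 and 8.25 CPM in sham-vehicle, 4.66, 6.43 and 9.81 in CKD-vehicle, and 5.70, 7.93 and 11.6 in CKD-Oxf. The sham-Oxf mice had 2.80, 6.42, 9.73, 10.6 and 8.82 CPM of Cry1 in order of number. All 4 ranges overlapped.

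Ciart was the least abundant member before allowing for length in CKD-vehicle, with 1.53, 3.73 and 10.6 CPM. It was 2.35, 5.73 and 26.7 CPM in sham-vehicle and 9.25, 19.4 and 25.5 CPM in CKD-Oxf. The sham-Oxf mice had 4.89, 20.5, 19.2, 28.8 and 29.8 CPM in order of number. In CKD-Oxf, 6 of 7 mice were above every CKD-vehicle mouse, and none was outside the range of sham-Oxf.

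**Figure D1:**
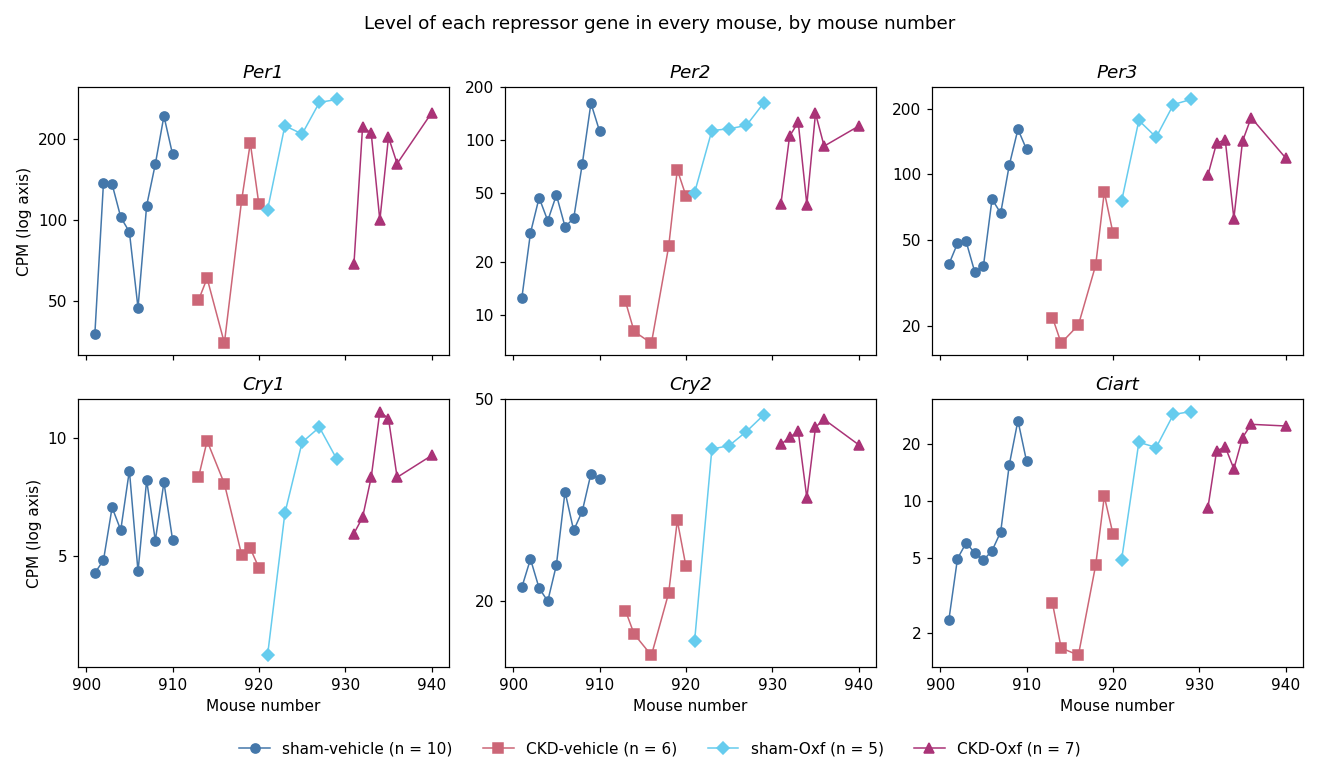
Level of each repressor gene in CPM (vertical log axis) against mouse number, 1 point per mouse, with lines joining the mice of a group (sham-vehicle n = 10, CKD-vehicle n = 6, sham-Oxf n = 5, CKD-Oxf n = 7). Per2 and Ciart are highest in late-numbered mice of both vehicle groups, while Cry1 in CKD-vehicle is higher in the first 3 mice than in the last 3.

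Nephrectomy without the bacterium was compared first. The Period genes, Cry2 and Ciart had lower estimates in CKD-vehicle than in sham-vehicle, but none of the 6 members passed the threshold. Differences are log2 fold changes ± SE from edgeR's quasi-likelihood test, and a gene passed at a Benjamini-Hochberg adjusted p under 0.05 over all 24273 genes. The estimate was -1.08 ± 0.49 for Per2, -1.02 ± 0.47 for Ciart, -0.95 ± 0.36 for Per3, -0.38 ± 0.17 for Cry2, -0.38 ± 0.36 for Per1 and 0.14 ± 0.22 for Cry1, each with an edgeR adjusted p of 0.955. In this comparison 0.00824% of all genes passed. DESeq2 and limma voom also called 0 members. At an unadjusted p under 0.05, 4 of the 6 members were lower, against 2.37% of all genes. CKD-vehicle mice below the sham-vehicle median numbered 5 of 6 for Per1, Per3 and Cry2, and 4 of 6 for Per2 and Ciart.

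In CKD hearts the bacterium went with a higher Cry2. Cry2 rose 1.98-fold in CKD-Oxf over CKD-vehicle (log2 fold change 0.98 ± 0.19, edgeR adjusted p 0.0404), and was the only 1 of the 6 members to pass, where 0.033% of all genes did (0.0247% higher). Ranges that do not overlap, with CKD-Oxf on top, were found for 0.218% of all genes, and for Cry2 alone among the members. Larger estimates with larger spread belonged to Ciart (2.04 ± 0.51, adjusted p 0.158), Per2 (1.78 ± 0.53, 0.2) and Per3 (1.71 ± 0.39, 0.139). Per1 was at 0.86 ± 0.38 (0.341) and Cry1 at 0.34 ± 0.24 (0.541), all p-values being edgeR's over all genes. At an unadjusted p under 0.05, 5 of 6 members were higher, against 6.89% of all genes. The Cry2 call depended on which mice were included. Of 13 fits that each left out 1 library of these groups, Cry2 passed in 2, without CKD-vehicle replicate 5 or CKD-Oxf replicate 4, and its adjusted p ranged from 0.0119 to 0.258, with estimates of 0.92 to 1.10. It did not pass with DESeq2 size factors (0.98, edgeR adjusted p 0.0563) or upper quartile scaling (1.00, 0.0695), where 0 members passed. With mouse number, centred within groups, as a covariate, 4 members passed in edgeR, at 2.13 for Per2 (adjusted p 0.00807), 1.92 for Per3 (0.000606), 2.24 for Ciart (0.00045) and 1.01 for Cry2 (0.000712). Centred this way, the covariate can take up spread within groups but cannot adjust for the difference in mouse number between groups. Over the 11 alternatives, the covariate fit among them, 5 to 3639 of all genes passed, against 8 in the main fit. Without CKD-vehicle replicate 5 or CKD-Oxf replicate 4, where Cry2 passed, 16 and 927 of all genes did.

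Sham-Oxf hearts compared with sham-vehicle gave estimates in the same direction, without a call. Ciart was at 1.13 ± 0.46 (edgeR adjusted p 0.305), Per3 at 1.14 ± 0.36 (0.21), Per2 at 0.94 ± 0.49 (0.419), Per1 at 0.82 ± 0.36 (0.346), Cry2 at 0.46 ± 0.18 (0.281) and Cry1 at 0.33 ± 0.23 (0.576). None of the 6 members passed in edgeR, and 0% of all genes did. At an unadjusted p under 0.05, 4 of 6 were higher, against 6.6% of all genes, and limma voom with sample weights called 1 of 6. Over the 11 alternatives to the main fit, limma voom among them, 0 to 141 of all genes passed. The comparison shares the sham-vehicle mice with that of CKD-vehicle. All 5 sham-Oxf mice exceeded the sham-vehicle median for Per2 and Per3, and 4 of 5 did for the other members, mouse 921 being the exception in each.

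Between the groups given the bacterium, CKD-Oxf and sham-Oxf differed little beside their errors. Estimates were -0.39 ± 0.39 for Per3, -0.33 ± 0.40 for Per1, -0.23 ± 0.53 for Per2, -0.11 ± 0.50 for Ciart, 0.14 ± 0.19 for Cry2 and 0.15 ± 0.25 for Cry1, with edgeR adjusted p-values of 0.881 to 0.982. None of the 6 passed in edgeR, DESeq2 or limma voom, 0% of all genes did in edgeR, and no member had an unadjusted p under 0.05, against 8.23% of all genes. The errors leave room for differences of either sign.

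Averaged over both surgeries, 4 of the 6 repressors rose with Oxf. Per3 rose 2.69-fold (1.43 ± 0.26, edgeR adjusted p 0.00818), Ciart 3-fold (1.59 ± 0.34, 0.0193), Per2 2.57-fold (1.36 ± 0.36, 0.0414) and Cry2 1.65-fold (0.72 ± 0.13, 0.00563). Per1 was at 0.84 ± 0.26 (0.0674) and Cry1 at 0.34 ± 0.17 (0.224). Of all genes, 2.81% passed, 1.26% as higher. At an unadjusted p under 0.05, 5 of 6 members were higher, against 11.5% of all genes. The average uses the same mice as the comparisons within each surgery and is not separate evidence. Per3, Cry2 and Ciart passed in all 28 fits that left out 1 library, and Per2 in 13 of them. The share of 7SL RNA was lower in the Oxf groups, and with its log2 share as a covariate Per3 (1.11, adjusted p 0.0428) and Cry2 (0.53, 0.0382) passed, but not Ciart (1.27, 0.1) or Per2 (1.11, 0.161). Without sham-Oxf replicate 1 and CKD-Oxf replicate 4, the estimates were 1.58 for Per3, 1.74 for Ciart, 1.52 for Per2 and 0.84 for Cry2, and all 6 members passed in edgeR. Over the 10 alternatives, this fit among them, 132 to 5336 of all genes passed, against 681 in the main fit. Leaving out CKD-Oxf replicate 4 alone gave 3362.

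The surgery effect averaged over the gavages gave no call among the 6 members in edgeR, DESeq2 or limma voom, nor did the interaction of surgery and Oxf, and 0% of all genes passed in either with edgeR. Per3 had the largest surgery estimate (-0.67 ± 0.26, edgeR adjusted p 0.375), the only member with an unadjusted p under 0.05, as 10.6% of all genes had. For the interaction no member and 3.55% of all genes did. The difference of the Oxf effect between CKD and sham hearts was 0.52 ± 0.26 for Cry2 and 0.91 ± 0.68 for Ciart, both with an edgeR adjusted p of 1. The data therefore gave no call for an Oxf effect that differs with surgery.

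**Figure D2:**
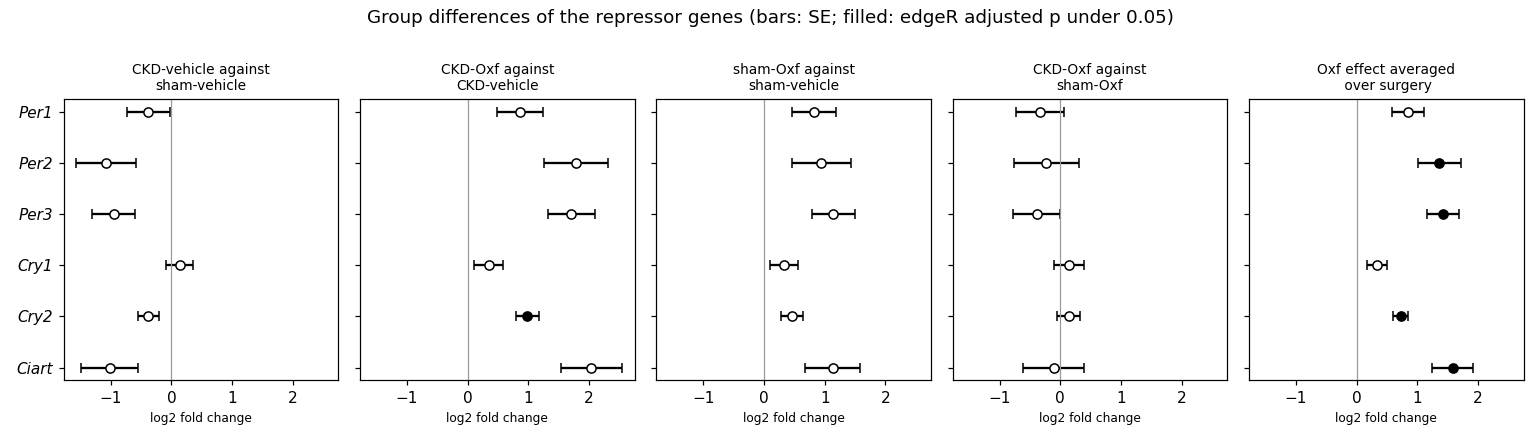
Log2 fold changes of the 6 repressors in 4 pairwise comparisons and in the Oxf effect averaged over surgery. Points are edgeR estimates, bars are SE, and filled points passed an adjusted p under 0.05 (Cry2 in CKD-Oxf against CKD-vehicle, and Per2, Per3, Cry2 and Ciart in the averaged effect).

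Within groups, where treatment was the same for every mouse, Ciart, Per2 and Per3 rose with mouse number. The slope common to the 4 groups was 0.26 ± 0.04 log2 units per number for Ciart (edgeR adjusted p 0.00242), 0.25 ± 0.05 for Per2 (0.0213) and 0.19 ± 0.03 for Per3 (0.0213). As a common slope, this is a 1.20-fold higher Ciart per step of 1 in mouse number. The levels did not rise steadily from mouse to mouse. Per1 was at 0.15 ± 0.04 (0.248), Cry2 at 0.08 ± 0.02 (0.234) and Cry1 at 0.03 ± 0.03 (0.828). These 3 of 6 members were among the 9 genes that passed of all tested (0.0371%; 0.0288% higher). At an unadjusted p under 0.05, 5 of 6 had a positive slope, against 3.03% of all genes. Ciart passed in all 28 fits without 1 library. Per2 and Per3 passed in 21 of them each, and 1 member alone passed in the other 7, without sham-vehicle replicate 1, 9 or 10, CKD-vehicle replicate 1 or 2, sham-Oxf replicate 1 or CKD-Oxf replicate 1. Library index, a second running number in the labels, rises with mouse number, and neither is described as an hour, a day or an order of collection.

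The mice of sham-vehicle show this slope directly. In order of number from 901 to 910, Ciart was 2.35, 4.96, 6.01, 5.31, 4.87, 5.46, 6.86, 15.6, 26.7 and 16.2 CPM. Mice 908, 909 and 910 were the highest, and 901 the lowest. Per2 over the same mice was 12.5, 29.4, 46.8, 34.6, 48.5, 32.0, 35.6, 73.1, 162 and 112 CPM. Per3 was 38.5, 48.0, 49.0, 35.5, 37.7, 76.9, 66.3, 110.5, 162 and 130.4 CPM. These 3 genes were highest in the same mouse, 909, and in all 3 the last 3 mice exceeded the first 7. Per1 did not order the mice so cleanly, with 37.7, 138, 136, 102.6, 90.5, 47.3, 113, 161, 243 and 176 CPM. Cry2 ran from 21.3 CPM in mouse 901 to 34.8 in mouse 910, with its lowest value of 20.0 in mouse 904 and its highest of 35.7 in mouse 909.

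In CKD-vehicle the Period genes and Ciart were low in the first 3 mice and higher in the last 3, while Cry1 went the other way. In order of number (913, 914, 916, 918, 919 and 920), Per2 was 11.9, 8.05, 6.90, 24.6, 67.5 and 48.0 CPM. Ciart was 2.88, 1.67, 1.53, 4.58, 10.6 and 6.71 CPM, and Per1 50.5, 61.0, 35.1, 119, 193 and 114 CPM. Cry1 was 7.92, 9.81, 7.63, 5.03, 5.23 and 4.66 CPM in these mice. The first 3 mice thus held more Cry1, and less Per1, Per2 and Ciart, than each of the last 3.

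Slopes for each group, from a fit with 4 group means and 4 slopes, passed for none of the 6 members in edgeR. In sham-vehicle the slope was 0.31 ± 0.06 for Ciart (adjusted p 0.0718), 0.29 ± 0.06 for Per2 (0.397) and 0.23 ± 0.05 for Per3 (0.148), where 0.0124% of all genes passed. In CKD-vehicle it was 0.40 ± 0.09 for Per2, 0.30 ± 0.08 for Ciart, 0.28 ± 0.07 for Per3, 0.25 ± 0.09 for Per1 and -0.14 ± 0.06 for Cry1, each with an adjusted p of 0.896, where 0.00412% passed. In sham-Oxf the largest was 0.25 ± 0.09 for Ciart (0.144), and Cry1 was at 0.19 ± 0.06 (0.103), where 1.42% passed. Mouse 921 is the first and shallowest library of sham-Oxf. When each of its 5 libraries was left out in turn, the slope was 0.11 to 0.35 for Ciart and 0.07 to 0.31 for Cry1, and 3 members passed without replicate 2 (mouse 923) and 1 without replicate 5 (mouse 929). Of all genes, 5718 passed without replicate 2 and 683 without replicate 5, so these calls are not particular to the members. In CKD-Oxf no slope exceeded that of Ciart at 0.12 ± 0.07 (adjusted p 1), and 0% of all genes passed. At an unadjusted p under 0.05 the members with a slope in either direction numbered 6 in CKD-vehicle (2.44% of all genes) and 5 in sham-vehicle (0.902%), and 4 in sham-Oxf (19.9%) and 0 in CKD-Oxf (4.88%).

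Whether the slopes differ between groups was tested directly. The smallest p among the members was that of Cry1 (p 0.00418, edgeR adjusted p 0.421), whose slope was negative in CKD-vehicle and positive in sham-Oxf. Per3 followed (p 0.0427, edgeR adjusted p 0.66), and the other 4 members had adjusted p-values of 0.714 to 0.903. No member and 0% of all genes passed, and 2 members against 7.43% of all genes had an unadjusted p under 0.05, so a difference in slope between groups was not shown.

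Correlations of log2 CPM with mouse number were also taken within a group, with no test of whether r differs between groups. Over the 10 sham-vehicle mice Ciart had a Pearson r of 0.882 (permutation p 0.00045) and a Spearman rho of 0.867 (permutation p 0.00221). Without mice 901 and 910, the farthest from the median number, r was 0.807. Per3 had r 0.87, Cry2 0.859, Per2 0.846, Per1 0.584 and Cry1 0.348 in this group, and 0.832, 0.807, 0.711, 0.275 and 0.325 without these mice. Over the 6 CKD-vehicle mice Cry1 had r -0.916 and rho -0.886, with exact permutation p-values of 0.0264 and 0.0333, and r was -0.925 without mice 913 and 914. There Per3 had r 0.863, Per2 0.83, Ciart 0.772, Per1 0.755 and Cry2 0.697. Over the 7 CKD-Oxf mice Ciart had r 0.738 and rho 0.857, with exact permutation p-values of 0.0649 and 0.0238, and r was 0.598 without mice 931 and 940. The r of the other members was lower there, at 0.531 for Per1, 0.505 for Cry1, 0.429 for Per2, 0.162 for Per3 and 0.0743 for Cry2. Without mice 931 and 940 it was -0.318, 0.491, -0.0483, 0.203 and 0.201 in that order. Correlations were computed for every gene tested in these 3 groups, and all tests were two-sided. Adjusted over all genes, the permutation p of r was 1.0 for Ciart in sham-vehicle, 0.687 for Cry1 in CKD-vehicle and 0.988 for Ciart in CKD-Oxf. The permutation p has a floor, set by the few orders of 6 or 7 mice and by the permutations drawn in sham-vehicle. Even a perfect r in 1 gene alone could not pass over 24273 genes. The adjusted values therefore cannot tell whether a gene followed mouse number. In CKD-vehicle Arntl had an exact permutation p of 0.00139 for r and an adjusted p of 0.687. No correlation was computed over the 5 sham-Oxf mice.

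**Figure D3:**
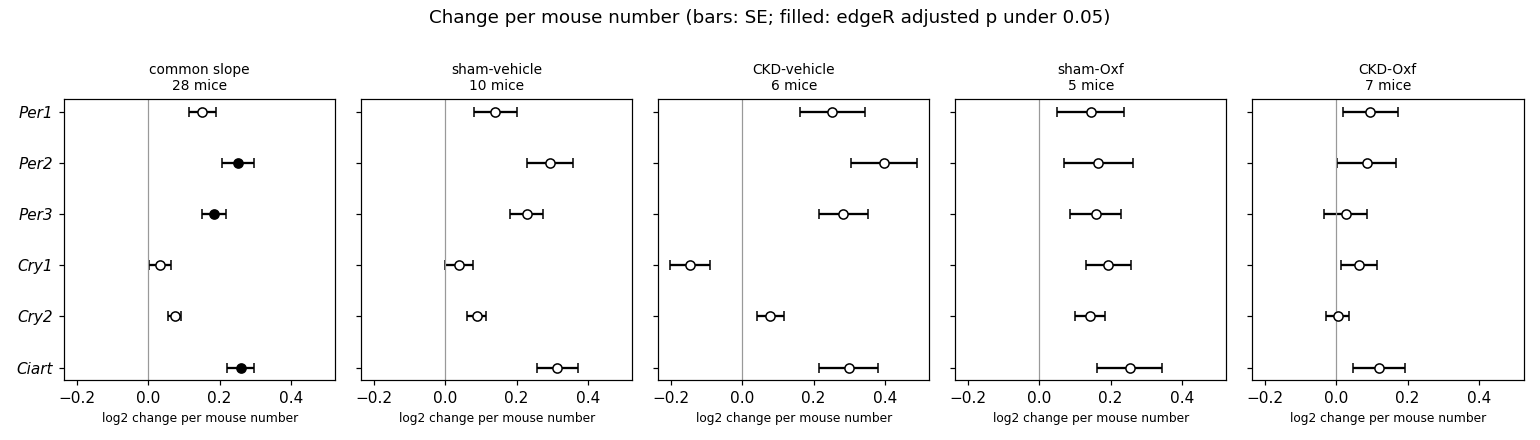
Log2 change per step of 1 in mouse number for each repressor, as a slope common to 28 mice and as a slope in each group. Points are edgeR estimates, bars are SE, and filled points passed an adjusted p under 0.05 (Per2, Per3 and Ciart in the common slope). The CKD-vehicle slope of Cry1 lies below 0, at -0.14.

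Ratios of counts within a library do not depend on how libraries were scaled. The ratio of Per2 to Cry1 counts was 2.77 in mouse 901 and 21.06 in mouse 909, the extremes of sham-vehicle, whose median was 6.5. In CKD-vehicle it went from 0.82 in mouse 914, where Cry1 counts exceeded those of Per2, to 12.91 in mouse 919. In the Oxf groups it was higher in the median, 17.62 in sham-Oxf (11.4 to 18.42) and 12.71 in CKD-Oxf (3.67 to 16.75, lowest in mouse 934). The ratio of Ciart to Cry1 went from 0.17 to 2.03 in CKD-vehicle and from 0.52 to 3.47 in sham-vehicle. With Oxf it was 1.27 to 3.22 in CKD hearts and 1.75 to 3.37 in sham hearts, so Ciart exceeded Cry1 in every Oxf library. Per1 exceeded Per2 in every library, by a median ratio of 4.52 in CKD-vehicle and 1.76 in CKD-Oxf, and of 2.53 in sham-vehicle and 1.98 in sham-Oxf. These ratios are given as descriptions with no test, and a longer transcript yields more counts at the same number of molecules.

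**Figure D4:**
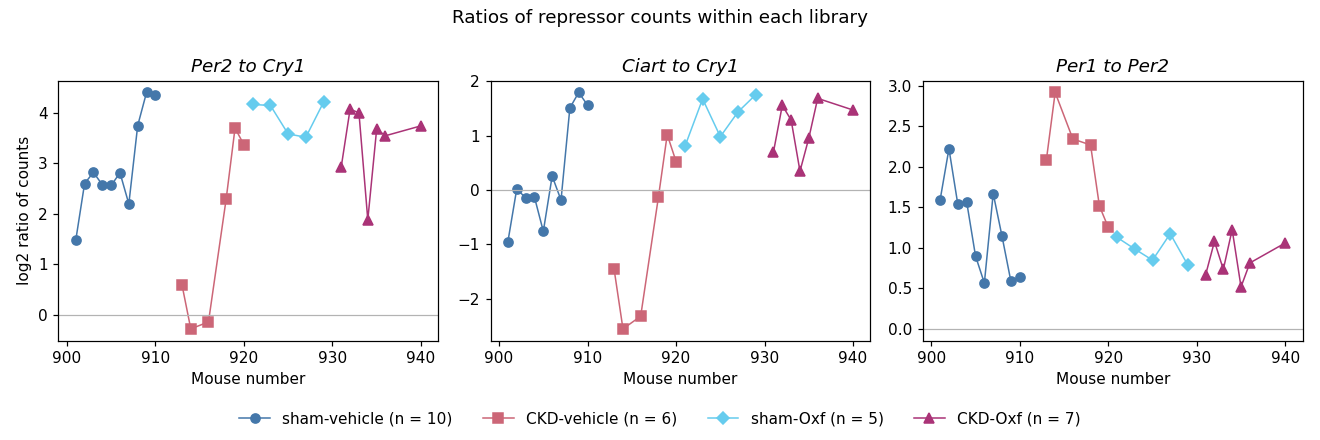
Log2 ratio of the counts of Per2 to Cry1, Ciart to Cry1 and Per1 to Per2 in each library (vertical axis) against mouse number, with lines joining the mice of a group and a grey line at equal counts. The first 2 ratios vary most in the vehicle groups, with Per2 to Cry1 between -0.28 and 3.69 in CKD-vehicle.

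The Period genes and Ciart were among the more variable genes between mice of the same group. The within-group SD of log2 CPM was 1.0 for Per2, 0.953 for Ciart, 0.777 for Per1, 0.733 for Per3, 0.464 for Cry1 and 0.356 for Cry2. Over the 13906 genes that averaged 1 or more on this scale the median SD was 0.343, and Per2 exceeded 91.5% of them, Ciart 91.2%, Per1 89.7%, Per3 89%, Cry1 72.4% and Cry2 53.2%. Mouse number accounted for 64.2% of the within-group variance of Ciart, 53.6% of that of Per2, 52.0% for Per3, 43.1% for Cry2, 40.4% for Per1 and 7.24% for Cry1, beside a median of 3.72% over those genes. Cry2 thus varied about as much as a typical gene.

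Across the 28 libraries, after subtracting group means, 5 of the members varied together and Cry1 apart from them. Pearson r was 0.927 for Per2 with Ciart, 0.906 for Per3 with Ciart, 0.894 for Per1 with Per2, 0.871 for Per2 with Per3 and 0.867 for Per3 with Cry2. The lowest of the 10 pairs without Cry1 was Per1 with Cry2, at 0.59. Pairs with Cry1 lay between -0.016 and 0.292. The points share library depth and scaling, so these values are descriptions with no p.

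For each member the genes with the most similar pattern were listed by the same group-centred r over 28 libraries, leaving out genes whose mean log2 CPM was under 1. Ciart was most like Tef (0.956), Mthfd1l (0.928) and Per2 (0.927), and Per3 most like Tef (0.933), Alpk1 (0.909) and Mthfd1l (0.909). Per2 was most like Ciart (0.927), Lncpint (0.916) and Tef (0.897). Per1 was most like Slc43a3 (0.896), Per2 (0.894) and Zbtb16 (0.866). Tef, a PAR bZIP factor, was therefore named for 3 members. Cry2 was most like Gstt2 (0.932), Pomt1 (0.879) and Car11 (0.878), and Cry1 most like Ergic2 (0.867), Ier3 (0.852) and Pde12 (0.851), with no clock gene among them. The most opposite pattern was that of Clock for Per3 (-0.913) and Per2 (-0.827), Slc41a3 for Ciart (-0.877), Rabl3 for Per1 (-0.799), Mgmt for Cry2 (-0.841) and Gstcd for Cry1 (-0.85). The 6 genes of each member, its 3 most alike and 3 most opposite, not all named here, were also ranked by Spearman. Then 5 of 6 stayed for Per2 and 4 for Ciart. Only 2 of 6 stayed for Per1 and Per3 and 1 of 6 for Cry1 and Cry2, so these 4 lists depend on the measure. Without sham-Oxf replicate 1, 5 of 6 stayed for Per1 and Ciart, 4 for Per2 and Per3, 1 for Cry2 and 0 for Cry1.

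Among 15 other clock genes, all tested, 4 rose and 4 fell with Oxf averaged over surgery, where 2.81% of all genes passed in either direction (1.26% higher). Those that rose were Dbp (1.51 ± 0.24, edgeR adjusted p 0.00261), Tef (1.18 ± 0.19, 0.00279) and Hlf (1.07 ± 0.16, 0.00211), the PAR bZIP factors, and Bhlhe41 (0.80 ± 0.12, 0.00114), a repressor that competes for E-boxes. Those that fell were the activators Arntl (-2.11 ± 0.30, 0.000996), Clock (-0.59 ± 0.10, 0.00563) and Npas2 (-1.07 ± 0.23, 0.0206), and Nfil3 (-0.87 ± 0.20, 0.0295), a repressor at D-boxes. The median over the 15 was 0.32, and 0.00 over all genes. In CKD-Oxf against CKD-vehicle Dbp (2.08 ± 0.36, 0.0156), Tef (1.498 ± 0.28, 0.0404), Hlf (1.31 ± 0.24, 0.0315) and Bhlhe41 (0.88 ± 0.17, 0.0416) passed as higher, where 0.0247% of all genes did. None passed as lower. Negative estimates there included Arntl (-1.85 ± 0.40, edgeR adjusted p 0.0971), Clock (-0.65 ± 0.15, 0.131), Npas2 (-1.31 ± 0.32, 0.158) and Nfil3 (-1.15 ± 0.28, 0.158). With mouse number Dbp (0.18 ± 0.03 per number, edgeR adjusted p 0.0213) and Tef (0.15 ± 0.02, 0.000767) rose and Arntl fell (-0.18 ± 0.03, 0.0281). So 6 of the 9 genes with a called slope over all groups were clock genes of these lists. In the slopes of single groups, Dbp (0.22 ± 0.03, edgeR adjusted p 0.00594), Tef (0.17 ± 0.03, 0.029) and Arntl (-0.31 ± 0.05, 0.0428) passed in sham-vehicle, where 0.0124% of all genes did. Dbp passed in CKD-vehicle (0.36 ± 0.05, 0.00325), where 0.00412% did, and Tef in sham-Oxf (0.18 ± 0.04, 0.0347), where 1.42% did.

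Genes that act on the PER and CRY proteins, and genes that drive Per transcription from outside the loop, were taken as 2 further lists. Of 14 turnover genes (kinases, ubiquitin ligases, deubiquitinases and partners of PER and CRY), all tested, 2 rose with Oxf averaged over surgery, where 1.26% of all genes did. They were Usp2 (0.57 ± 0.12, edgeR adjusted p 0.014), a deubiquitinase that is itself a clock output, and Csnk1d (0.27 ± 0.07, 0.0473), which encodes the casein kinase 1 delta that phosphorylates PER. No turnover gene passed in any other comparison with edgeR. Of 16 genes that mark or carry inputs to Per, such as glucocorticoid, cAMP and temperature signals, none passed in any comparison with edgeR, and 5 had an unadjusted p under 0.05 for Oxf averaged over surgery, against 23% of all genes.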

How the data were processed

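Raw gene counts from 28 libraries of total RNA were deposited by the authors as 1 table of whole numbers. Per the submitters' processing notes, the tools were FastQC 0.11.7, MultiQC 1.9, STAR 2.6.1d and featureCounts 1.6.3 of Subread, with build mm10; the annotation and strand setting are not given in the sources used here. Of 45513 gene identifiers, 45465 were found in GENCODE M21, used for positions and exon lengths.

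Counts were tested in R 4.3.3 with edgeR 4.0.16 (TMM, filterByExpr by group with a minimum count of 10, robust quasi-likelihood F test) in 1 fit of 28 libraries and 4 group means, with Benjamini-Hochberg adjustment over 24273 genes. The SE is the absolute estimate divided by the square root of F. Slopes and the mouse number covariate used mouse number centred within groups. Log2 CPM had a prior count of 2. Replicates were numbered in accession order, and p-values measure the spread between mice as labelled. Alternatives used DESeq2 1.42.0, limma 3.58.1 voom, other scalings, filters, covariates and libraries left out; the 7SL covariate and the joint removal of 2 libraries were chosen after seeing the data. The script for the fits was tested on simulated data.

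All 6 members are named in the pairwise comparisons, the averaged Oxf effect and the common slope, and some of them elsewhere. Of the other lists, genes past the threshold are named. For likeness the 3 highest per member are named and, of the 3 lowest, the lowest. The members and lists were chosen with earlier results of these data known.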

Additional observations from a re-analysis of the deposited data

Results flagged for a closer look

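In 3 of 24 combinations of gene and group, the lowest mouse lay farther from the others than Dixon's limit allows for log2 CPM, where chance gives 1.2 such gaps at 1 in 20. The gap of Cry2 in sham-Oxf replicate 1 (mouse 921) to the next mouse was 0.85 of the group's range, at 16.7 against 39.9 CPM. Ciart was the lowest in the same library, with a gap of 0.757 of the range, at 4.89 against 19.2 CPM. Cry2 in CKD-Oxf replicate 4 (mouse 934) had a gap of 0.679 of the range, at 32.0 against 40.7 CPM. Sham-Oxf replicate 1 had the lowest depth, of 19.8 M counts, and CKD-Oxf replicate 4 a 7SL share of 20.64%. The part of depth and 7SL share in these gaps was not tested.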

How the results depend on the processing

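For CKD-Oxf against CKD-vehicle, where 1 member passed in edgeR, 0 passed with DESeq2 size factors or upper quartile scaling, 3 with DESeq2, 5 with limma voom, 4 with mouse number as covariate, 4 without sham-Oxf replicate 1 and CKD-Oxf replicate 4, and 0 to 4 when 1 library was left out. For Oxf averaged over surgery, 4 became 2 without the low-count filter and 2 with the 7SL covariate, and 3 to 5 when 1 library was left out. For sham-Oxf against sham-vehicle, 0 became 1 with limma voom. For the common slope on mouse number, 3 became 1 with at least 10 counts in every library and sham-Oxf replicate 1 left out, 5 with DESeq2, and 1 to 3 when 1 library was left out. The count of slopes in sham-Oxf was 0 to 3 when 1 library was left out. Over all genes, CKD-Oxf against CKD-vehicle gave 5 to 3639 calls in the alternatives and 0 to 927 with 1 library left out. The Oxf average gave 132 to 5336 and 109 to 3362 in that order, and the common slope 6 to 39 and 2 to 15. Sham-Oxf against sham-vehicle gave 0 to 141 in the alternatives. The sham-Oxf slope gave 0 to 5718 with 1 library left out. The causes of these changes were not tested.

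No direction reversed among called values. CKD-Oxf against sham-Oxf turned to -0.0815 for Cry1 and -0.0669 for Cry2 with at least 10 counts in every library and sham-Oxf replicate 1 left out, to -0.15 for Cry1 without both libraries named above, and to -0.19 for Cry1 and -0.0327 for Cry2 with limma voom. There Ciart turned to 0.0376 with mouse number as covariate and 0.27 with the 7SL covariate, and Per2 to 0.10 with the latter. The surgery average turned to -0.0082 for Cry1 without both libraries, -0.0252 for Cry1 with limma voom and 0.0212 for Cry2 with the 7SL covariate. The common slope of Cry1 turned to -0.0086 with limma voom. Leaving out 1 library gave -0.0258 to 0.22 for Cry1 in CKD-vehicle against sham-vehicle. In CKD-Oxf against sham-Oxf it gave -0.0628 to 0.29 for Cry1, -0.0465 to 0.23 for Cry2 and -0.36 to 0.0579 for Ciart. The slope of Cry2 in CKD-Oxf became -0.0012 to 0.0187. No paired analysis was possible because replicate numbers were given in accession order and pair no mice. Depth limits Ciart and Cry1 most, with as few as 56 and 59 counts in a library. DESeq2, limma voom and other scalings were not run for the slopes of single groups.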
